A study of Saccharomyces cerevisiae W303 with 8 samples.

Results

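The comparison described here is between budding yeast labelled as lacking CDC55 and its control strain, both sampled 10 min after NaCl was added to 0.4 M. It uses 2 of the 8 arrays of the series, 1 for each strain, and covers all genes: 6256 probes, of which 5830 could be read on both arrays. These 5830 probes represent 5549 genes. Both strains are Saccharomyces cerevisiae of the W303 background labelled msn2msn4, and both carried the plasmid that the labels name pMsn2pMsn2DNES. The cdc55 strain is labelled msn2msn4cdc55, so the cdc55 mutation is the only labelled difference between them. Cells grew in YPD at 30 °C and were frozen at 0, 10, 20 and 30 min. The Cy5 channel of each array held the sample, and the Cy3 channel held RNA of the untreated control strain, the same reference on every array. A value below is the log2 ratio of sample to that reference, and a strain difference is the cdc55 value minus the control value, on the log2 scale. There were no replicate cultures or arrays, so no test could be made and every difference below is a difference between 2 hybridisations.

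Cdc55 is a regulatory B subunit of protein phosphatase 2A (PP2A), an enzyme whose subunits direct it to different substrates. In yeast, high salt activates the MAP kinase Hog1, and the zinc-finger factors Msn2 and Msn4 enter the nucleus and induce general stress genes. At the same time ribosome synthesis is shut down for a while, and cells build up glycerol to balance the outside osmolarity. The title of the series asks how PP2A with Cdc55 acts on this response through Msn2 and Msn4, and the 10 min sample is the earliest one after the salt was added.

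The deposited sources disagreed on which array was which. The scanner file attached to the control sample at 10 min held the values of the cdc55 column at 0 min in the deposited value table, and the reverse. Over the series 4 of 8 files were exchanged in this way, and the values here follow the value table. The control array at 10 min had a median Cy5 signal of 6632 over a background of 45, and the cdc55 array 7130 over 47. The control file had no settings block and 267 spots with a non-uniform Cy5 signal, the cdc55 file had the block and 8 such spots, so this difference between the files cannot be told apart from strain. As a measure of technical spread, the control strain at 0 min hybridised against its own RNA gave an SD of 0.15 over the probes, with 2 probes past 2-fold.

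CDC55 itself was read at 0.14 in the control strain at 10 min (spots at 0.13 and 0.14) and at -0.23 in the cdc55 strain (spots at -0.26 and -0.19), a difference of -0.36. It was lower in the cdc55 strain at the other times as well, by differences of -0.65 at 0 min, -0.65 at 20 min and -1.0 at 30 min. The probe remained well above background on the array labelled cdc55. The labels do not say which stretch of the gene was removed, so this signal does not settle the genotype, and "cdc55 strain" below means the samples labelled so. Of the neighbouring genes, COX13 differed by -0.01 and RPS26A by 0.25. The MSN2 probe was too dim to be read. MSN4 stood at 1.08 and 1.11 in the control and cdc55 strain, a difference of 0.03 with overlapping spots. This probe was well above background and about 2-fold above the reference although both strains are labelled msn2msn4, so it does not settle that part of the genotype either. Among genes used as selection markers, URA3 differed by -0.19, LEU2 by -0.09, HIS3 by -0.57 and TRP1 by 0.73. Before salt these differences were -0.35, -0.96, -1.11 and 0.66. With Cy5 signals alone the 10 min difference of HIS3 was -1.05. The mating-type markers, which would show a mix-up of a and alpha strains, had median differences of 0.09 over 5 measured a-cell genes and -0.42 over 5 alpha-cell genes.

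At 10 min each strain differed from the untreated reference at many probes, and the strains differed from each other by more than 2-fold at fewer. In the control strain 402 probes were past 2-fold above that reference and 355 below it, and the cdc55 strain had 447 above and 492 below. In the cdc55 strain 31 probes were higher past 2-fold (0.532% of the 5830 measured) and 94 were lower (1.61%). Counted with 1 probe a gene, 26 genes were higher (0.469%) and 91 lower (1.64%). Only 14 probes were past 4-fold, 1 higher and 13 lower. The median difference over all probes was 0.01 and the SD 0.38, and 51.9% of the probes had a positive difference. At all 125 called probes the spots of the 2 arrays did not overlap, and at the 115 with 2 spots on both arrays the median standard error between spots was 0.065, which covers spot error only. In cultures such as these, less RNA per cell and fewer cells with the RNA cannot be told apart.

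**Figure D1:**
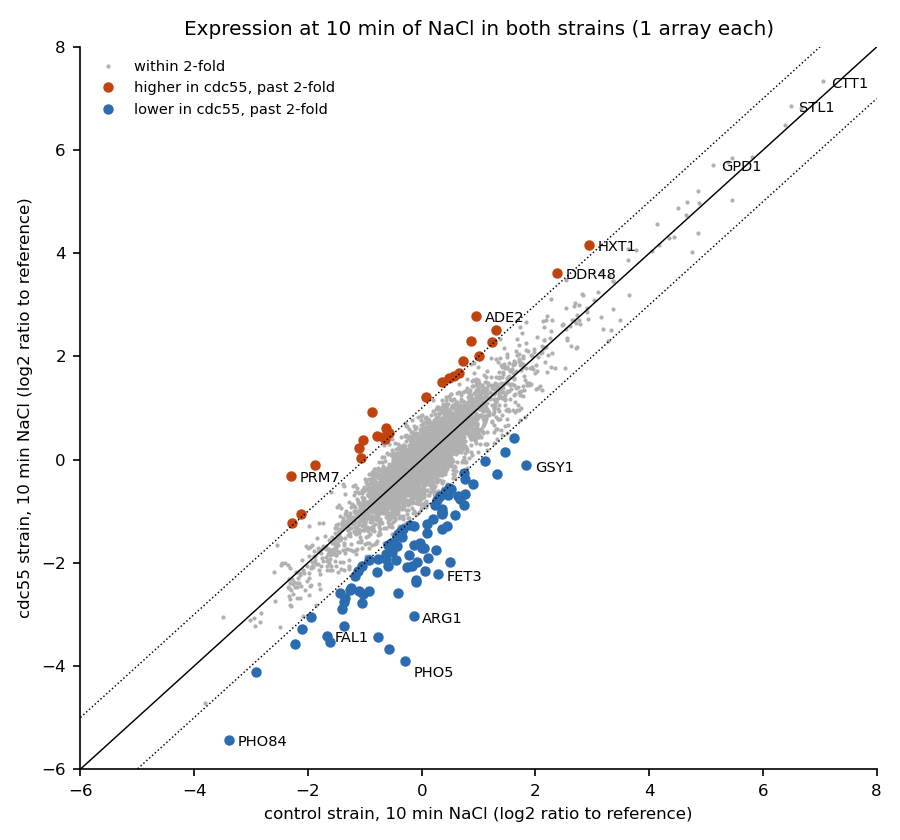
Log2 ratio to the reference at 10 min of NaCl in the control strain (horizontal axis) and the cdc55 strain (vertical axis), 1 point a gene. The solid line marks equal values and the dotted lines a 2-fold difference: 26 genes lie past it on the higher side and 91 on the lower side, while the strongly salt-induced STL1, GPD1 and CTT1 lie near the line of equal values.

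Many of the genes lowest in the cdc55 strain belong to the phosphate starvation response, which the factor Pho4 switches on when phosphate is scarce. Of 17 measured genes of that response 16 had negative differences, 10 were past 2-fold lower and none past 2-fold higher, with a median of -1.22 against 0.01 over all genes. Over all genes 48% were negative and 1.64% past 2-fold lower. PHO5, the main secreted acid phosphatase, had the largest difference of all genes: -0.29 in the control strain (spots at -0.39 and -0.18) and -3.90 in the cdc55 strain (spots at -3.98 and -3.82), a difference of -3.62. Its control value was close to that of the untreated reference, whereas the cdc55 value was far below it.

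PHO11 stood at -0.58 in the control and -3.67 in the cdc55 strain, a difference of -3.09. PHO12 stood at -0.76 and -3.43, a difference of -2.67. PHO11 and PHO12 encode nearly identical acid phosphatases, so their probes may read both RNAs. PHO84, the high-affinity phosphate transporter, was already low in stressed control cells at -3.39 and lower still in the cdc55 strain at -5.43, a difference of -2.04. SPL2, an inhibitor of low-affinity phosphate uptake, was at -1.61 and -3.54, a difference of -1.93. These 5 genes were thus low in the cdc55 strain whether or not salt had lowered them in the control.

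The sodium-phosphate symporter PHO89 was at 1.47 in the control strain and at 0.14 in the cdc55 strain, a difference of -1.32. In the cdc55 strain its value was 2.17 higher after salt than before it, so PHO89 rose in this strain as well. VTC3, a subunit of the vacuolar polyphosphate synthase, was at -1.03 and -2.60, and GIT1, a permease for glycerophosphoinositol, at -0.62 and -1.94. The other 2 called genes of the list, named after their values were seen, were VTC1 (-1.22) and VTC4 (-1.19). They belong to the same synthase complex and came out within 2-fold with loess normalisation (-0.90 and -0.92) and with Cy5 signals alone (-0.86 and -0.65). The low-affinity transporter PHO87, which was not in the list, was higher in the cdc55 strain, at 0.43 against -0.68 in the control, a difference of 1.11. The median of the list was -1.62 at 0 min, so this difference was present before salt, and it was -0.35 at 20 min and -0.43 at 30 min.

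**Figure D2:**
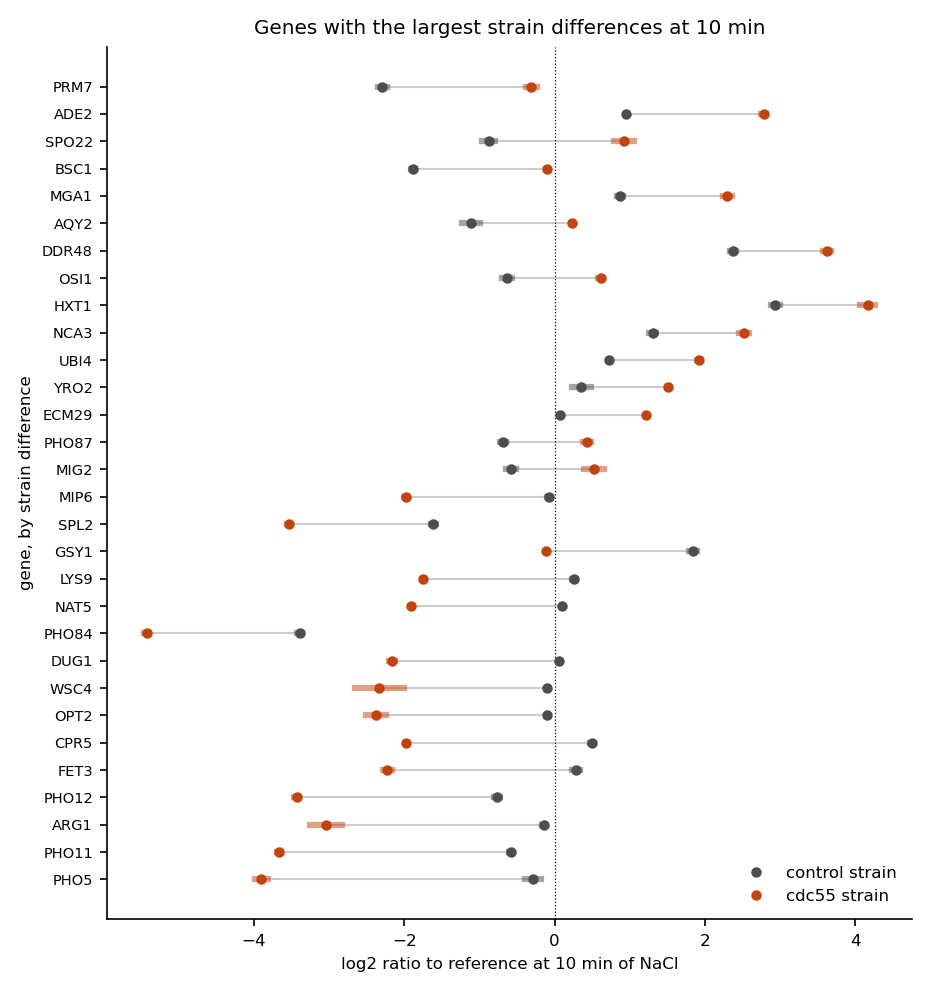
The 15 highest and the 15 lowest named genes by strain difference at 10 min. Points show the log2 ratio to the reference in the control and cdc55 strain, and thick bars join the lowest and highest spot of a probe. ADE2, OPT2 and WSC4 had 1 usable spot in the control strain, so their control bars have no width. Only genes whose spots did not overlap between the strains could enter, so the absence of overlap follows from the choice. PHO5 differs by -3.62 and PRM7 by 1.98.

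Genes that make amino acids were lower as well. In arginine synthesis all 10 measured genes had negative differences, 6 were past 2-fold lower, and the median was -1.25 (-1.84 before salt). The shares of 48% negative and 1.64% past 2-fold lower over all genes stand beside this and each list below, as do 52% positive and 0.469% past 2-fold higher. ARG1, argininosuccinate synthase, was at -0.14 in the control strain and -3.04 in the cdc55 strain (spots at -3.25 and -2.82), a difference of -2.90. ARG3, ornithine carbamoyltransferase, was at 0.35 and -1.34, and ARG4, argininosuccinate lyase, at -0.79 and -2.17. In each of these 3 genes the cdc55 value was the lower one by more than 2-fold, while the control value was within 2-fold of the reference. The arginine permease gene CAN1 lay in the opposite direction, at 0.00 in the control and 0.86 in the cdc55 strain.

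In lysine synthesis 8 of 9 genes had negative differences and 2 were past 2-fold lower, with a median of -0.42 (-0.61 before salt). LYS9, saccharopine reductase, was at 0.26 and -1.76, a difference of -2.01, and LYS20, homocitrate synthase, at 0.45 and -1.29, a difference of -1.73. The exception was LYS14, the activator of the pathway, with a difference of 0.41. For leucine, isoleucine and valine all 13 genes had negative differences but none was past 2-fold, with a median of -0.53 (-0.69 before salt). The most negative of them was ILV3, dihydroxyacid dehydratase, at -0.33 and -1.27.

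Sulfate assimilation and methionine genes were less uniform: 19 of 25 had negative differences, 2 were past 2-fold lower, and the median was -0.21. MET17, which uses sulfide to make homocysteine, was at -0.26 and -2.08, a difference of -1.82 that came to -1.18 with Cy5 signals alone. MET6, methionine synthase, was at -1.24 and -2.49. The low-affinity methionine permease MUP3 was the highest of the list, at -0.17 and 0.77. Before salt the list stood at a median of -0.94, and at 20 and 30 min at -0.56 and -0.91, so the 10 min value was the one nearest to 0. DUG1, a dipeptidase of glutathione breakdown that releases cysteine, was at 0.06 and -2.16. OPT2, an oligopeptide transporter, was at -0.09 (1 usable spot) and -2.37. Both of these were among the 15 lowest genes with a symbol and belong to no list.

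Respiratory genes lay slightly lower in the cdc55 strain. All 35 measured genes of the respiratory chain and ATP synthase had negative differences, 1 of them past 2-fold, with a median of -0.34 (-0.49 before salt). That gene was HAP4, the activating subunit of the factor that controls respiratory genes, at -2.23 in the control and -3.57 in the cdc55 strain, a difference of -1.33. Among the enzymes COX5B, a cytochrome oxidase subunit, was at 1.02 and 0.30 and QCR2, of the cytochrome bc1 complex, at 0.17 and -0.47. In the citric acid cycle 18 of 22 genes had negative differences (median -0.24, none past 2-fold, median -0.43 before salt). Of the mitochondrial ribosomal proteins 54 of 66 did (median -0.16, none past 2-fold, median -0.46 before salt). Over all genes 48% had a negative difference. The glycolytic genes were spread evenly, with 14 of 25 differences positive and a median of 0.02.

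Carbohydrate storage genes stood out by a single member. GSY1, 1 of the glycogen synthases, was at 1.84 in the control strain (spots at 1.79 and 1.89) and at -0.11 in the cdc55 strain (spots at -0.12 and -0.11), a difference of -1.95. The control strain had induced the gene at 10 min, and the cdc55 strain was near the level of the untreated reference. Before salt the control was at 0.11 and the cdc55 strain at -0.78, a difference of -0.89. The gene thus rose in both strains, from a lower level and by less in the cdc55 strain. Its strain difference changed by -1.07 from 0 to 10 min, which is past 2-fold. The paralog GSY2 was at 0.41 and -0.10 and the phosphorylase GPH1 at 0.28 and -0.69, both within 2-fold. Over glycogen metabolism 8 of 10 genes had negative differences with a median of -0.21, and over trehalose metabolism 7 of 10 with a median of -0.04. The hexokinase HXK1 was at 1.33 and -0.27, a difference of -1.61, with a difference of -2.42 before salt.

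Glucose transport genes split. HXT1, the low-affinity glucose transporter, was at 2.94 in the control and 4.17 in the cdc55 strain, a difference of 1.23 that was 0.57 with Cy5 signals alone. MIG2, a glucose repressor, was at -0.58 and 0.53, a difference of 1.1 (0.99 with Cy5 signals alone). HXT7, a high-affinity transporter, was at -0.49 and -1.63, and its nearly identical neighbour HXT6, whose RNA the probe may also read, at -0.63 and -1.61. Of 19 genes in the list 10 had positive differences, and the median was 0.04.

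Proteasome genes lay slightly higher in the cdc55 strain. Of 35 measured proteasome genes, counted with their activator RPN4, 34 had positive differences, with a median of 0.56. None of them was past 2-fold, and 52% of all genes had a positive difference. BLM10, a proteasome activator, had the largest difference at -0.29 in the control and 0.70 in the cdc55 strain, followed by the core subunits PRE8 (-0.07 and 0.82) and PUP3 (-0.10 and 0.62). The exception, named after its value was seen, was the core subunit PRE2 with a difference of -0.25.

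Past 2-fold were 2 genes outside the list that act with the proteasome, picked from the 15 highest genes with a symbol. Other genes of this kind were not counted. UBI4, the stress-induced polyubiquitin gene, was at 0.73 and 1.92, a difference of 1.19, and ECM29, a proteasome-associated scaffold, was at 0.07 and 1.22, a difference of 1.15. With Cy5 signals alone these 2 came to 0.78 and 0.87, and with loess ECM29 came to 0.98. Before salt the proteasome median was 0.45, and it was 0.29 at 20 min and 0.04 at 30 min, so the 10 min value was the highest of the 4. The heat shock chaperones had 22 of 28 positive differences with a median of 0.26 and none past 2-fold. The cytosolic Hsp70 SSA2 was at -0.02 and 0.77 and the Hsp90 HSP82 at 1.31 and 1.96, whereas the stress-induced Hsp70 SSA4 lay the other way, at 3.19 and 2.53.

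**Figure D3:**
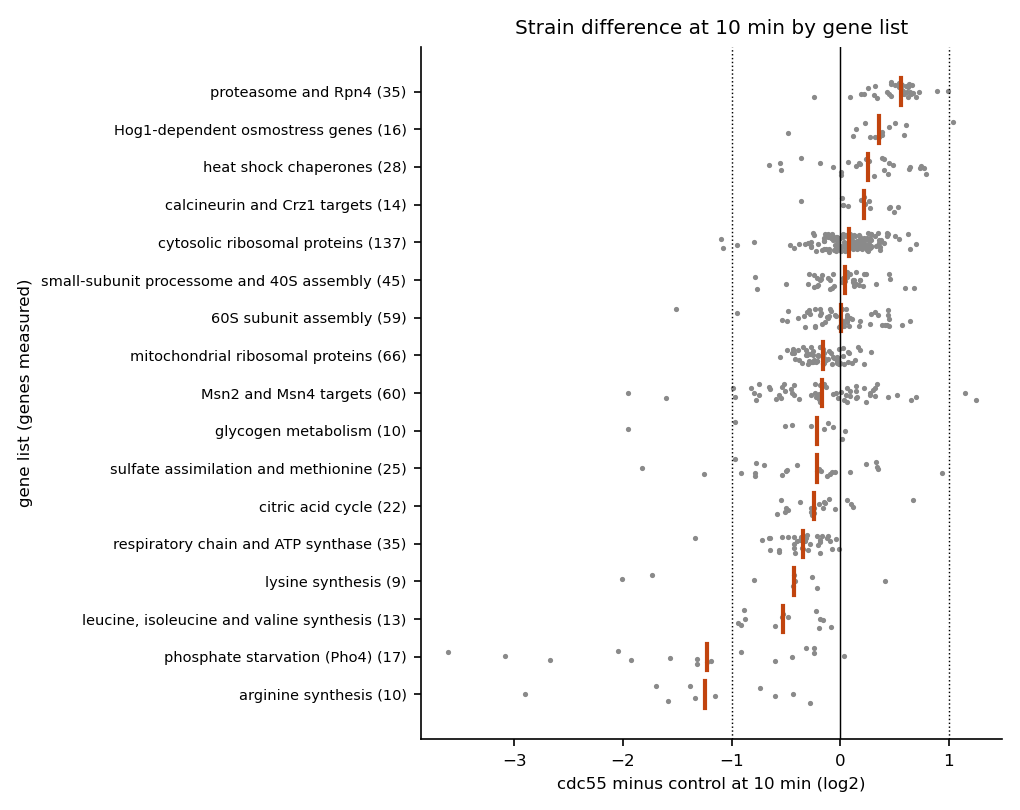
Strain difference at 10 min (cdc55 minus control, log2) for each measured gene of 17 lists. Each point is a gene, the coloured bar is the median of the list and the dotted lines mark 2-fold: the arginine and phosphate lists have medians of -1.25 and -1.22, and the proteasome list has a median of 0.56.

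Some strongly salt-induced genes were induced in both strains to nearly the same level, and others differed more. PRR2 was at 4.75 in the control and 4.03 in the cdc55 strain, and CIN5 at 3.28 and 2.30, both named after their values were seen. HXT1, at 2.94 and 4.17, was described above. CTT1, the cytosolic catalase and a Msn2 target, was at 7.06 in the control and 7.33 in the cdc55 strain, and HSP12, a membrane-protecting stress protein, at 6.39 and 6.48. DDR2, another Msn2 target, was at 2.46 and 2.62. The differences of 0.27, 0.09 and 0.15 were small beside the induction, and the spots of HSP12 overlapped between the arrays. With Cy5 signals alone CTT1 differed by 0.10 and HSP12 by -0.056. PGM2, a phosphoglucomutase, was lower in the cdc55 strain at 1.81 and 1.35.

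Over 60 measured Msn2 and Msn4 targets 25 differences were positive and 35 negative, 2 genes were past 2-fold in each direction, and the median was -0.17. The 2 higher genes were DDR48, a stress protein, at 2.38 and 3.62, and YRO2, a membrane protein, at 0.36 and 1.51. DDR48 had a difference of 1.25 that was 0.63 with Cy5 signals alone. The 2 lower genes were GSY1 and HXK1, described above. The median of these targets was 0.00 before salt, -0.68 at 20 min and -0.90 at 30 min, and the 10 min value lay between those of the earlier and the later times.

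Genes that depend on Hog1 had positive differences in 15 of 16 cases with a median of 0.36, and 1 was past 2-fold. GPD1, glycerol-3-phosphate dehydrogenase, was at 5.12 and 5.72, GPP2, the phosphatase that completes glycerol synthesis, at 5.46 and 5.85, and the glycerol symporter STL1 at 6.49 and 6.85. The sodium pump ENA1 was at 2.20 and 2.78 and GRE2, a methylglyoxal reductase, at 4.85 and 5.22. AHP1, a thiol peroxidase and the gene past 2-fold, was at 1.24 and 2.28, a difference of 1.04 that was 0.11 with Cy5 signals alone. With Cy5 signals alone the median of the list was 0.16, GPD1 differed by 0.09, STL1 by -0.01 and GRE2 by -0.05. The proline permease PUT4, at 4.87 and 4.39, was the exception.

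Ribosome assembly genes were lowered by salt in both strains to similar medians at this time. The 59 measured genes of 60S assembly had a median of -1.46 in the control strain and -1.55 in the cdc55 strain, with 30 positive and 29 negative differences and a median difference of 0.01. The 45 genes of 40S assembly had medians of -1.36 and -1.25 and a median difference of 0.04. Before salt both lists were higher in the cdc55 strain, with median differences of 0.46 and 0.45, and at 20 min they were 1.04 and 1.02. The 10 min sample was thus the 1 time at which these lists did not differ between the strains by more than 0.1 in the median. RNA polymerase I and III subunits followed the same course, with medians of 0.36 at 0 min and -0.04 at 10 min.

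Within the 60S assembly list only RRP15 was past 2-fold, at -1.40 in the control and -2.90 in the cdc55 strain, a difference of -1.51. RRP17 (-1.39), ESF2 (-1.45) and FAL1 (-1.75), assembly genes in neither list, were past 2-fold lower as well. They were named after their values were seen. IMP3, a component of the small-subunit processome, was at -1.36 and -2.13, and RRP8, an rRNA methyltransferase, at -2.09 and -3.04. At the other end REA1, the large AAA ATPase of 60S maturation, was at -0.83 and -0.19, and UTP20, of the processome, at -1.35 and -0.67. The cytosolic ribosomal proteins had 91 of 137 positive differences with a median of 0.08 and 2 genes past 2-fold lower, RPS9A (-1.94 and -3.04) and RPL7B (-1.17 and -2.25). Each of these has a close paralog whose RNA the probe may also read. RPS9A came to -0.91 with loess and RPL7B to -0.99 with Cy5 signals alone.

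**Figure D4:**
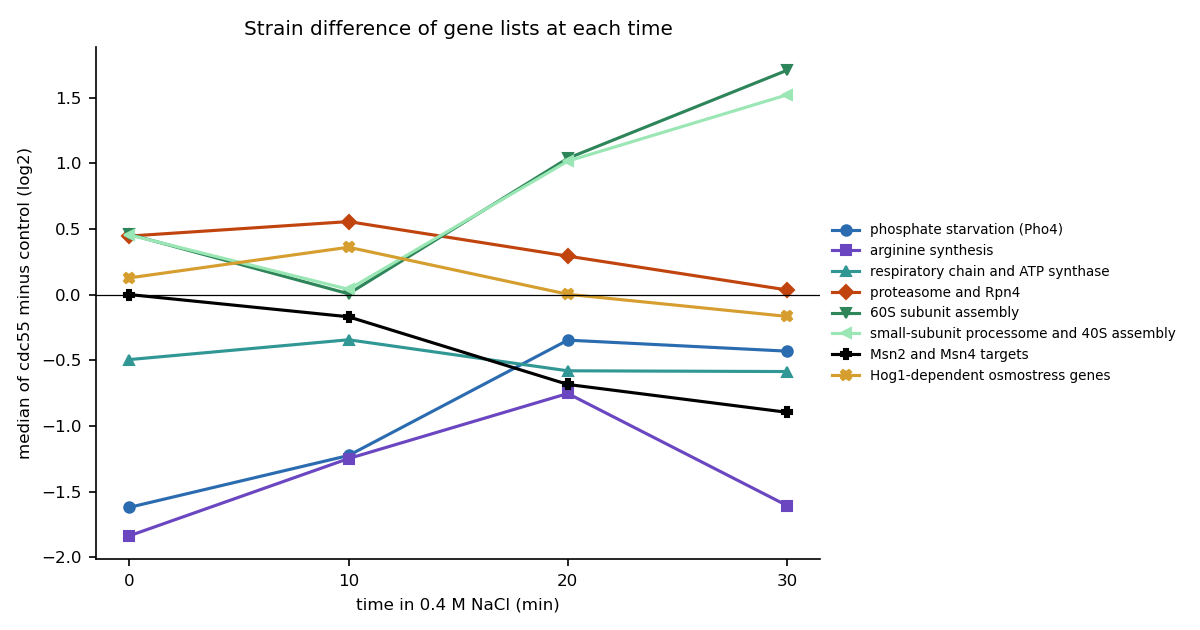
Median strain difference (cdc55 minus control, log2) of 8 gene lists at 0, 10, 20 and 30 min in 0.4 M NaCl. The ribosome assembly lists lie near 0 at 10 min (0.01 and 0.04) and above 0 at the other times, while the phosphate and arginine lists are below 0 at all 4 times.

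In metal uptake, FET3, the multicopper oxidase of high-affinity iron uptake, was at 0.29 in the control strain and -2.22 in the cdc55 strain, a difference of -2.51. TIS11, which binds mRNAs under iron shortage, was at 0.37 and -0.96, and SIT1, a siderophore transporter, was lower by a difference of -1.02 (-0.80 with loess). The other iron genes did not follow, and over 24 measured genes 14 differences were negative with a median of -0.08. Among redox enzymes the cytosolic thioredoxin TRX1 was at 0.00 and -1.71, while its paralog TRX2 was at 0.43 and 1.08.

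Genes of the cell cycle and the cell surface differed singly. The mitotic kinase gene KIN3 was at -0.92 and -2.55 and SPO12, which acts in mitotic exit, at -0.20 and -1.27 (a difference of -0.99 with loess). The mitotic cyclin CLB2 was at -1.43 and -1.99, and over 27 mitotic genes the median was -0.03. FAR1, which arrests cells in G1 on pheromone, was at -2.11 and -3.29, and RAS1, 1 of the yeast Ras genes, at -1.45 and -2.59 (a difference of -0.91 with loess). Of 31 cell wall genes 22 had positive differences with a median of 0.20 and 1 was past 2-fold lower, PIR3, at 0.48 and -0.55. WSC4, of the family of cell wall sensors, was at -0.09 (1 usable spot) and -2.33, with cdc55 spots at -2.66 and -2.01, a difference of -2.24 that was -1.61 with loess. Histone genes had 9 of 10 positive differences (median 0.24) and calcineurin and Crz1 targets 13 of 14 (median 0.22), none past 2-fold, where 52% of all genes had a positive difference.

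Among the remaining genes with the lowest values, CPR5, a cyclophilin of the endoplasmic reticulum, was at 0.50 and -1.98, a difference of -2.48. NAT5, a subunit of an N-terminal acetyltransferase, was at 0.10 and -1.91, and MIP6, an RNA-binding protein, at -0.08 and -1.98. These 3 genes were near the reference level in the control strain and nearly 4-fold below it in the cdc55 strain. Their differences at 0 min were -2.34, -1.42 and -1.43, so they differed before salt as well.

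At the high end was ADE2, an enzyme of purine synthesis, with a difference of 1.83. It was at 0.96 in the control strain (1 usable spot) and 2.79 in the cdc55 strain (spots at 2.75 and 2.82). Its neighbours RGA1 and AFI1 differed by 0.00 and 0.14, and over 23 purine synthesis genes the median was 0.13 with no other gene past 2-fold higher. W303 strains commonly carry a mutant ADE2 allele, and the labels do not give the ADE2 allele of these strains. PRM7, a pheromone-regulated gene, had the highest value among named genes, at -2.29 and -0.31, a difference of 1.98. BSC1, at -1.88 and -0.10, is its neighbour on the chromosome.

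Such neighbours were few. Among 5532 pairs of adjacent measured genes 5 had both members past 2-fold, all in the same direction. Besides PRM7 with BSC1 these were OSI1 with YKL070W, YLL053C with the aquaporin gene AQY2, LYS20 with INH1, and RTC2 with YSW1. YLL053C and AQY2 form a single reading frame in some yeast strains. The other genes among the 15 highest with a gene symbol were SPO22, a meiosis gene, at -0.88 and 0.93, MGA1, related to heat shock factors, at 0.87 and 2.30, AQY2 at -1.11 and 0.23, OSI1 at -0.63 and 0.61 and NCA3 at 1.31 and 2.52.

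Most genes that differed at 10 min also differed before salt. Of the 31 higher probes 17 were past 2-fold higher at 0 min, when 0.69% of all probes were, and all 31 had the same sign. Of the 94 lower probes 61 were past 2-fold lower at 0 min, when 1.74% of all probes were, and 93 had the same sign. Past 2-fold at all 4 times were 7 of the 30 higher probes and 29 of the 88 lower probes that could be read throughout. Past 2-fold at 10 min alone were 11 and 11 of them. All these values share the same Cy3 reference RNA. The number of differing probes was smallest at 10 min among the 4 times, with 125 of 5830 (2.14%) against 141 of 5793 (2.43%) at 0 min, 312 of 5802 (5.38%) at 20 min and 609 of 5735 (10.6%) at 30 min. At 20 min 131 probes were higher (2.26%) and 181 lower (3.12%), and at 30 min 319 (5.56%) and 290 (5.06%).

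**Figure D5:**
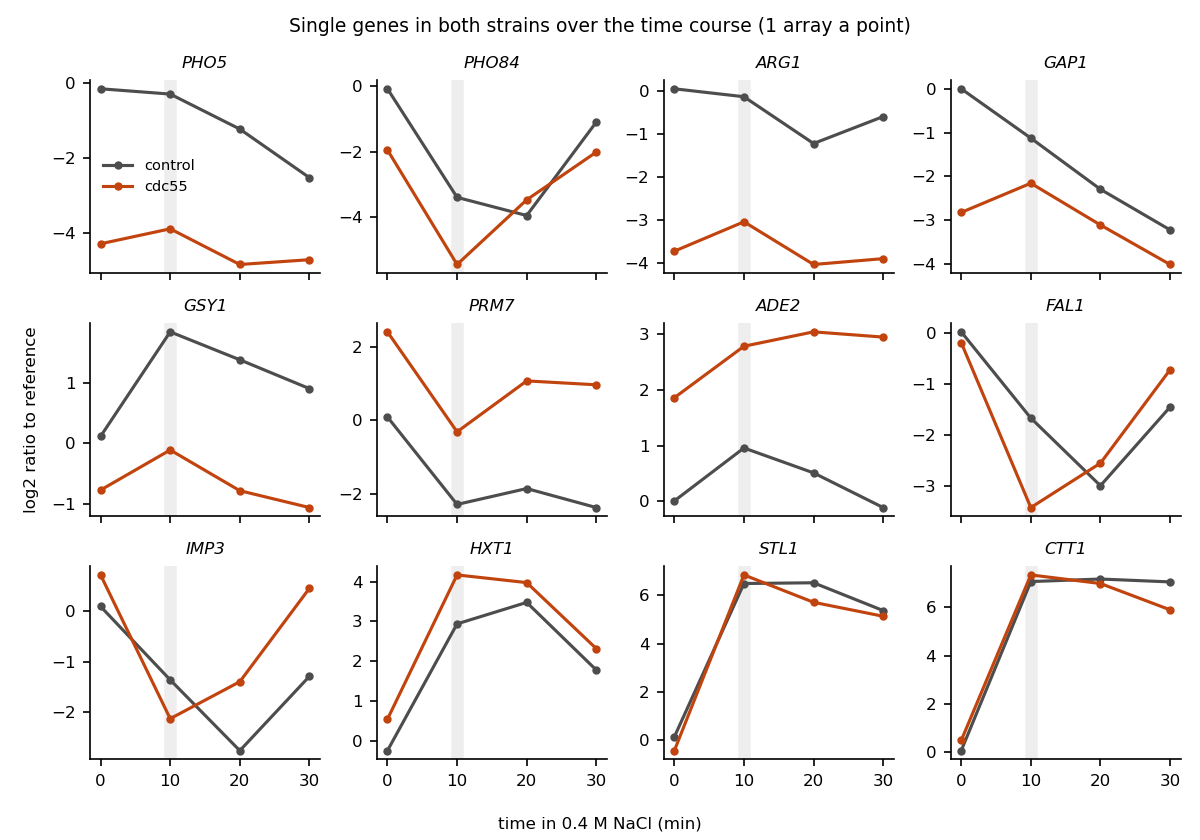
Log2 ratio to the reference of 12 genes at 0, 10, 20 and 30 min of NaCl in the control and cdc55 strain, 1 array a point, with the 10 min samples shaded. PHO5 and ARG1 lie lower and ADE2 higher in the cdc55 strain at all 4 times, whereas FAL1 lies lower in it at 10 min (-1.67 and -3.42) and slightly higher at 20 and 30 min.

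The strain difference changed by more than 2-fold between 0 and 10 min at 50 probes, with 15 changes upward (0.259% of 5793) and 35 downward (0.604%). Upward changes came mostly from genes that were low in the cdc55 strain before salt. PHM6, a phosphate-regulated gene, was at 0.22 and -2.73 in the control and cdc55 strain at 0 min and at -3.80 and -4.72 at 10 min, so the difference went from -2.94 to -0.92. The general amino acid permease GAP1 went from a difference of -2.82 to -1.03, as it was lowered by salt in the control strain (0.00 to -1.13) and not in the cdc55 strain (-2.82 to -2.16). PUT4 was induced by salt in both strains, from 0.14 to 4.87 and from -1.95 to 4.39, and its difference went from -2.09 to -0.48. Enzymes of sulfate assimilation and methionine synthesis moved alike, MET14 from -1.21 to 0.33 and MET2 from -1.63 to -0.21.

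Downward changes included genes of RNA processing. FAL1, an RNA helicase of 40S assembly, was at 0.02 and -0.19 at 0 min and at -1.67 and -3.42 at 10 min, a difference that went from -0.21 to -1.75, and it was 0.44 and 0.73 at 20 and 30 min. IMP3 went from 0.63 to -0.77 and RRP8 from 0.23 to -0.95, and both were above 1 at 20 and 30 min. GRE2 was higher in the cdc55 strain before salt (1.5 against -0.04) and nearly equal after it, so that its difference went from 1.54 to 0.37. Of the 59 genes of 60S assembly 54 changed downward and of the 45 of 40S assembly 42, while 2518 of all genes changed downward and 2997 upward.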

How the data were processed

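Total RNA of each culture was labelled with Cy5 and hybridised with the Cy3 reference to 2-colour Agilent arrays, all on 1 slide, per the labels and the file headers. The deposited scanner files hold a log10 ratio of Cy5 over Cy3, spot and background intensity, and 0 or 1 flags, per the file headers. In 5 of 8 headers the software is Agilent Feature Extraction 10.5.1.1, the other files give no version, and it took the ratio after subtracting background and correcting for dye. The deposited value table holds log2 values whose scale, centring and direction the authors do not state. Of its 5742 complete rows 5646 equalled a probe's log2 ratio to within 0.01 on all 8 arrays after 4 files were exchanged back, and 2 did so as attached, so none of the 3 stayed unknown. Its column medians at 10 min were -0.01 and 0.00 in the control and cdc55 strain, and over the other columns they lay between -0.00 and 0.05.

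The log10 ratio was multiplied by log2 of 10, non-uniform spots were left out and the 2 spots of a probe averaged. No spot was saturated in Cy5. Of 6256 probes 7 had no usable spot and 419 were not well above background in both channels on both arrays. Of those, 70 were dim in Cy5 on 1 array only (69 of them brighter in the control strain), and none had a bound past 2-fold. Gene symbols come from the given RefSeq table, which held 5740 of 6228 systematic names. Its assembly differs from the build in the headers, so no coordinates are given. A gene with several probes (24 genes, probes at most 0.50 apart) is represented by its brightest.

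With 1 array a group, no test was made; a probe was called at a 2-fold difference. The 15 highest and 15 lowest genes with a symbol in that table (those listed by systematic name only, such as YFL051C at 1.41 and YCL021W-A at -2.19, were passed over), the 8 most differing of each list described and a set of fixed genes are named; others, such as neighbours and genes whose difference changed most from 0 to 10 min, were named after their values were seen. The 15 highest and 15 lowest were taken among genes whose spots did not overlap between the strains, which held at every called probe. The lists and the comparison were chosen with earlier results of these data known. Values came from Python 3.11.15 and R 4.3.3 with limma 3.58.1 for the loess alternative (normexp offset 50). The calling step was checked on simulated spots with large differences and spot error only, which says nothing of error between arrays or cultures. A planned search of promoter sequences was not run.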

Additional observations from a re-analysis of the deposited data

Results flagged for a closer look

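The strain difference lay in opposite directions past 2-fold at different times for 2 genes, and in both cases the difference between times was not tested, since each value rests on 1 array a strain. AAC3, a mitochondrial ADP/ATP carrier, had a strain difference of -1.02 at 10 min and 1.05 at 30 min, and the 10 min value was -0.97 with Cy5 signals alone. RPL7B, a protein of the large ribosomal subunit, had a strain difference of -1.08 at 10 min and 1.67 at 20 min, and the 10 min value was -0.99 with Cy5 signals alone.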

How the results depend on the processing

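With the files as attached to the samples, 411 probes were higher and 431 lower, with 51.2% of calls lower in place of 75.2%, and 39 of the 125 calls were shared. That setting compares the cdc55 strain at 10 min with the same strain at 0 min by the value table. The median then was -1.98 for 60S assembly, -1.78 for 40S assembly, 3.39 for Hog1-dependent genes, -0.32 for leucine, isoleucine and valine synthesis, -0.42 for phosphate starvation and 0.29 for the proteasome. It changed sign for Msn2 and Msn4 targets (1.25), arginine synthesis (0.088), respiratory chain (0.31), citric acid cycle (0.47), glycogen metabolism (0.51), histones (-0.028), mitochondrial ribosomal proteins (0.056) and sulfate assimilation (0.19). Named genes that changed sign were PRM7 (-2.73), SPO22 (-0.27), BSC1 (-2.15), AQY2 (-1.20), OSI1 (-0.26), PHO87 (-0.76), MIG2 (-0.20), PHO5 (0.40), ARG1 (0.68), FET3 (0.15), CPR5 (0.16), OPT2 (0.026), LYS9 (0.085), GSY1 (0.66) and MET17 (0.011). With the value table's assignment, the median of the phosphate list was -0.92 with normexp and loess and -0.94 with Cy5 signals alone, and that of Hog1-dependent genes 0.16 with Cy5 signals alone. A 1.5-fold threshold gave 183 higher and 346 lower probes (65.4% lower), and a 3-fold threshold 5 and 31 (86.1% lower). Of the 117 called genes 73 stayed past 2-fold under all 8 other settings that gave them a value and 116 kept their sign; the exception, YGR045C, was at -0.09 with Cy5 signals alone. Loess took 28 genes and Cy5 signals alone 23 below 2-fold; the cause was not tested. The 1944 dimmest probes held 17 of the 31 higher and 47 of the 94 lower calls. No paired analysis was possible because each group holds 1 array and the groups share fewer than 2 replicate numbers, and no replicate could be left out.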

Other observations

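Several genes outside the lists differed past 2-fold and are named here after their values were seen, as a description. They were picked from the called genes, so they say nothing of the pathways they belong to. Of genes known from sporulation and meiosis, SPS4 was at -1.37 in the control and -3.22 in the cdc55 strain, MPC54 at 0.20 and -1.16, YSW1 at 0.10 and -1.25, SPR3 at 0.76 and -0.37, and REC8, the meiotic cohesin, at -0.59 and -1.66. SPO22 lay the other way, with a difference of 1.81. With loess SPR3 came to -0.52 and REC8 to -0.58. Of the enzymes that make NAD from tryptophan, BNA1 was at 0.35 and -1.03 and BNA2 at 1.12 and -0.03 (a difference of -0.99 with loess). UBR2, part of the ubiquitin ligase that marks the proteasome activator Rpn4 for breakdown, was higher at -1.06 and 0.04, while RPN4 itself differed by 0.19.

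Grouped by the response of the control strain at 20 min, the 149 probes raised at least 4-fold had a median strain difference of 0.06 at 10 min, -0.53 at 20 min and -0.77 at 30 min. The 235 probes lowered at least 4-fold had a median of 0.38 before salt, -0.11 at 10 min, 0.85 at 20 min and then 1.5 at 30 min. The 20 min values share the array that set the groups. On the 10 min arrays, which did not set them, the medians of the extreme groups lay within 0.2 of each other. Of the raised probes 53.7% had positive differences and of the lowered probes 37.0%, against 51.9% of all probes. The raised probes held 6 higher calls and 1 lower call, and the lowered probes 1 higher call and 19 lower calls. Over all probes 0.532% were past 2-fold higher and 1.61% lower.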
